A study of Mus musculus with 83 samples.

Results

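The 9 genes described here encode receptors for the catecholamines and were chosen by name from the 48795 genes of the count table: the dopamine receptor genes Drd1, Drd2 and Drd4, the alpha-1 adrenergic receptor genes Adra1a, Adra1b and Adra1d, the alpha-2 genes Adra2a and Adra2c, and the beta receptor gene Adrb1. Libraries were made from pools of 125 neurons cut by laser from 14 µm fresh frozen sections of frontal cortex, taken from male mice of strain C57BL/6 aged 2 months (young, 9 animals) or 22 months (old, 12 animals). The cells were recognised by staining for Slc17a7 (PYC, the glutamatergic type), Pvalb (PV), Sst (SST) or Vip (VIP), the last 3 being interneurons. The 83 libraries comprised 12 from old mice for each type and, from young mice, 9 for PYC, 8 for PV, 9 for SST and 9 for VIP. The mice carried no labelled genetic change or treatment. No label names the mouse behind a library, so pools of different types come in part from the same animals and the tests between types treat them as independent.

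Dopamine and noradrenaline reach the cortex from midbrain and brainstem neurons and act on receptors that couple to G proteins. Drd1 and Adrb1 couple to Gs-type proteins and raise cyclic AMP, Drd2, Drd4 and the alpha-2 receptors couple to Gi and lower it, and the alpha-1 receptors couple to Gq and act through phospholipase C and calcium. In the frontal cortex these receptors are known for their part in attention, arousal and working memory.

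The libraries held 1.46 to 27.2 M counts (M for mega), with a median of 6.99 M. In 6 libraries (2 young VIP and 1 each of young PYC, young SST, old PYC and old VIP) the share of mitochondrially encoded genes was 0.215% to 2.51%, and in the remaining 77 it was 8.31% to 17.0%. Results that turn on these 6 are given with and without them. Gad1, which encodes a GABA-synthesising enzyme, separated the PYC from the interneuron libraries. It was at 5.34 to 90.8 CPM (counts scaled to a library total of 1 M) in PYC libraries and 265 to 2452 CPM in interneuron libraries. Markers of other cells were present in the pools. Summed astrocyte markers (7 of 7 detected in every group) reached 723 to 3221 CPM. Most of that sum was Slc1a2, a glutamate transporter gene, with group means of 1310 to 2271 CPM, against Aqp4 with group means of 9.73 to 20.3 CPM and Gja1 with 19.8 to 44.2 CPM. Slc17a7, the vesicular glutamate transporter gene, was at 131 to 754 CPM in the interneuron libraries against 445 to 1679 CPM in PYC libraries. These ranges overlapped, so Slc17a7 did not separate the classes library by library. The part of such RNA in any value below was not tested, and in pools fewer cells with a transcript and less transcript per cell cannot be told apart.

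Detection differed widely between the receptor genes. A count was present in 83 of 83 libraries for Adra1a, 81 for Adrb1, 79 for Adra1b, 73 for Adra1d, 72 for Adra2c, 62 for Drd1, 55 for Adra2a, 32 for Drd2 and 6 for Drd4. Different genes were compared only as CPM per kilobase of merged exons. On that scale Adra1d had the highest mean of the 9 genes in PYC pools, with 19.5 in young and 10.2 in old mice, though its counts can hold reads of an antisense gene named below. Adra1b led in VIP pools, with 20.4 CPM per kilobase in young and 10.5 in old mice. Adra1a led in PV pools, with 9.16 CPM per kilobase in young and 9.42 in old mice. The SST pools had no single leading gene: Adra1d was first in young mice at 5.24 CPM per kilobase and Adra1a in old mice at 6.58. Each neuron type thus had an alpha-1 gene as its highest member, and in PYC, PV and VIP pools it was the same gene at both ages. These ranks are descriptions of group means, and no test was made between genes. They depend on unequal merged exon lengths, which were 8.73 kb for Adra1a, 3.38 kb for Adra1b and 1.9 kb for Adra1d. In young SST pools Drd1 was close behind Adra1d, at 4.83 CPM per kilobase.

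**Figure D1:**
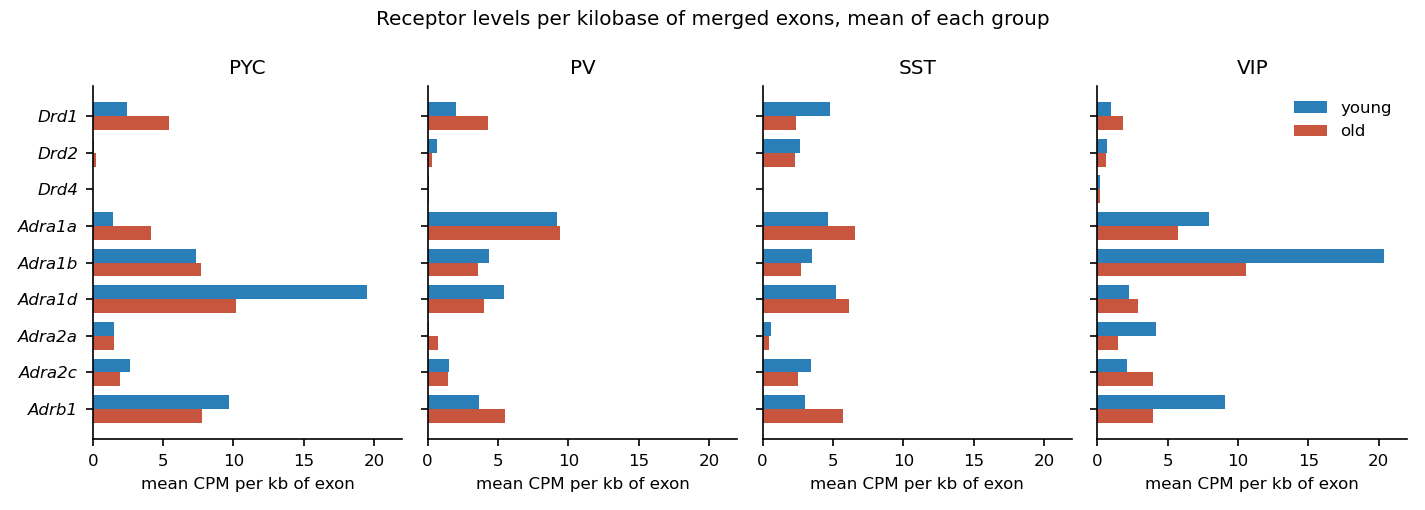
Mean level of the 9 receptor genes in CPM per kilobase of merged exons (horizontal axis) in each neuron type, young in blue and old in red, with 8 to 12 libraries behind each bar. The longest bars are Adra1b in young VIP pools (20.4) and Adra1d in young PYC pools (19.5), and Adra1a is the longest in PV pools.

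**Figure D2:**
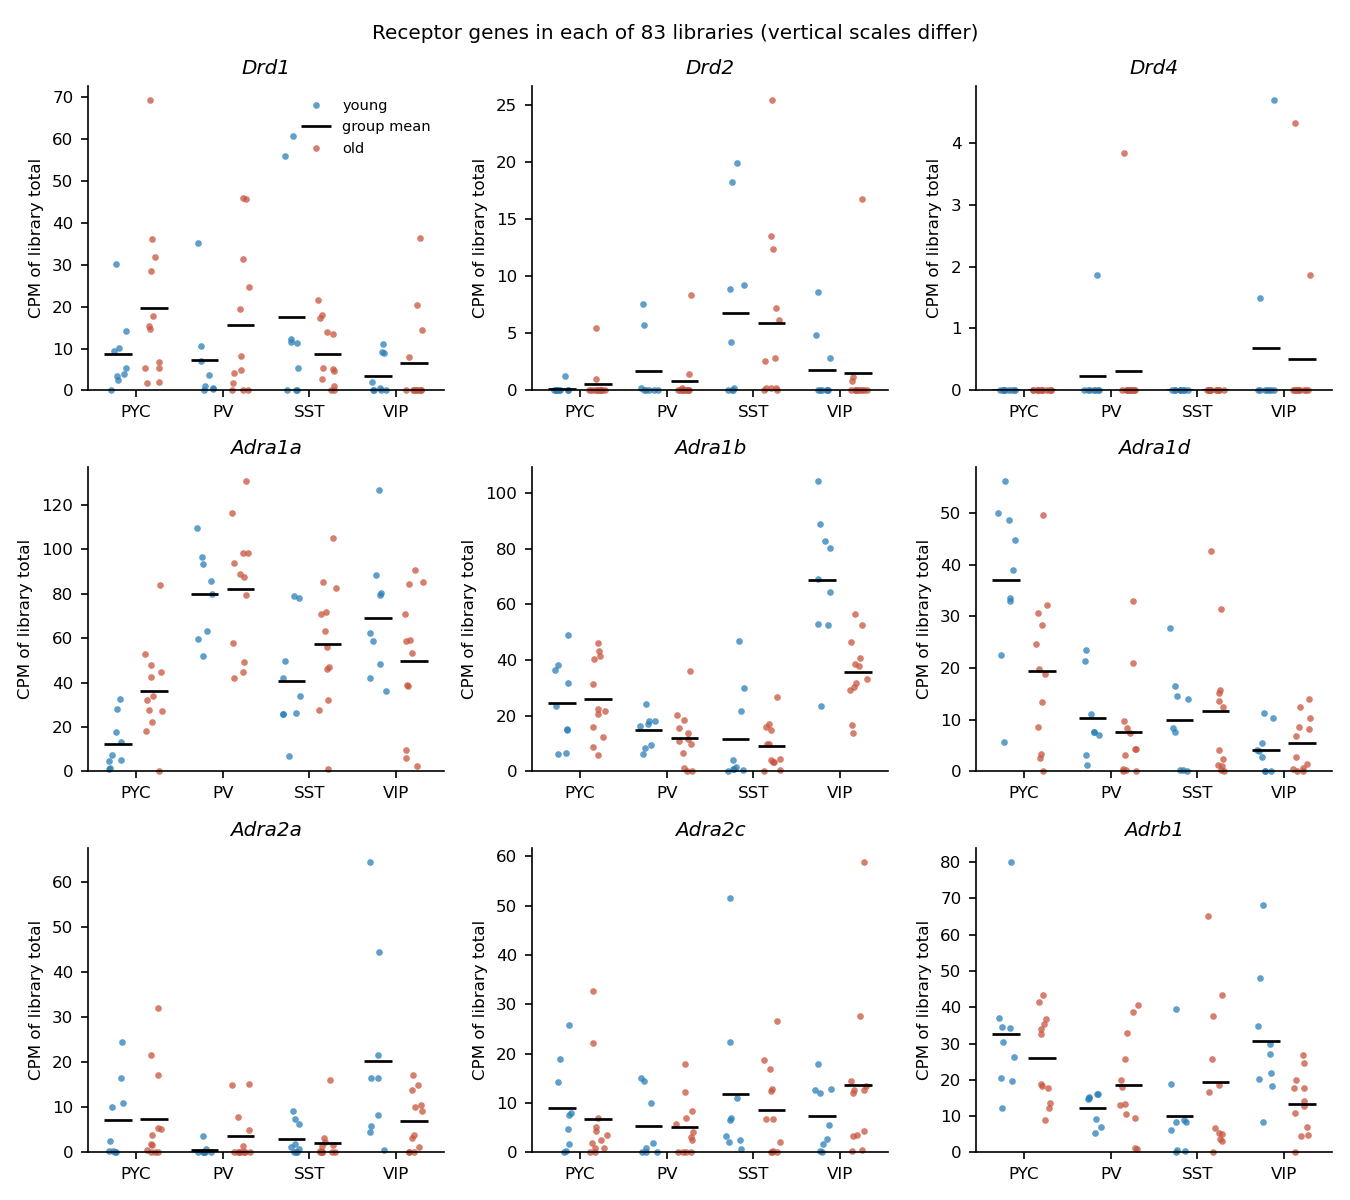
CPM of the library total (vertical axis, a different scale in each panel) of the 9 genes in each of the 83 libraries, grouped by neuron type, young in blue and old in red, with black bars at group means. Adra1a is low in young PYC pools (1.09 to 32.7 CPM), Adra1b is high in VIP pools (13.7 to 104 CPM), and Drd4 is at 0 in 77 libraries.

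Of the 9 genes, 8 had enough counts to be tested between the 4 neuron types and 5 differed, which were Adra1a, Adra1b, Adra1d, Adra2a and Drd2 (edgeR quasi-likelihood F-test on 3 degrees of freedom, adjusted p under 0.05 over all 19208 genes tested). The background was high, with 26.6% of all tested genes called. With limma-voom, where 26% of genes were called, Drd1 and Adrb1 were called as well, for 7 of 8. Among all genes the called share was 18.7% with DESeq2, 26.8% without the 6 libraries low in mitochondrial counts, 26.7% with the library total as a covariate, 10.4% in young samples alone and 13% in old samples alone, and the effect of these settings is given below for the genes called. In the 6 pairwise comparisons of types, 9 of 48 gene and pair tests were called by edgeR and 19 by limma-voom. The shares of all genes called by edgeR in a pair were 16.8% for PYC against PV, 10.8% for PYC against SST, 9.44% for PYC against VIP, 10.9% for PV against SST, 16.9% for PV against VIP and 6.52% for SST against VIP. The shares with limma-voom were, in the same order, 17.9%, 11.4%, 8.6%, 11.4%, 15.9% and 5.54%.

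**Figure D3:**
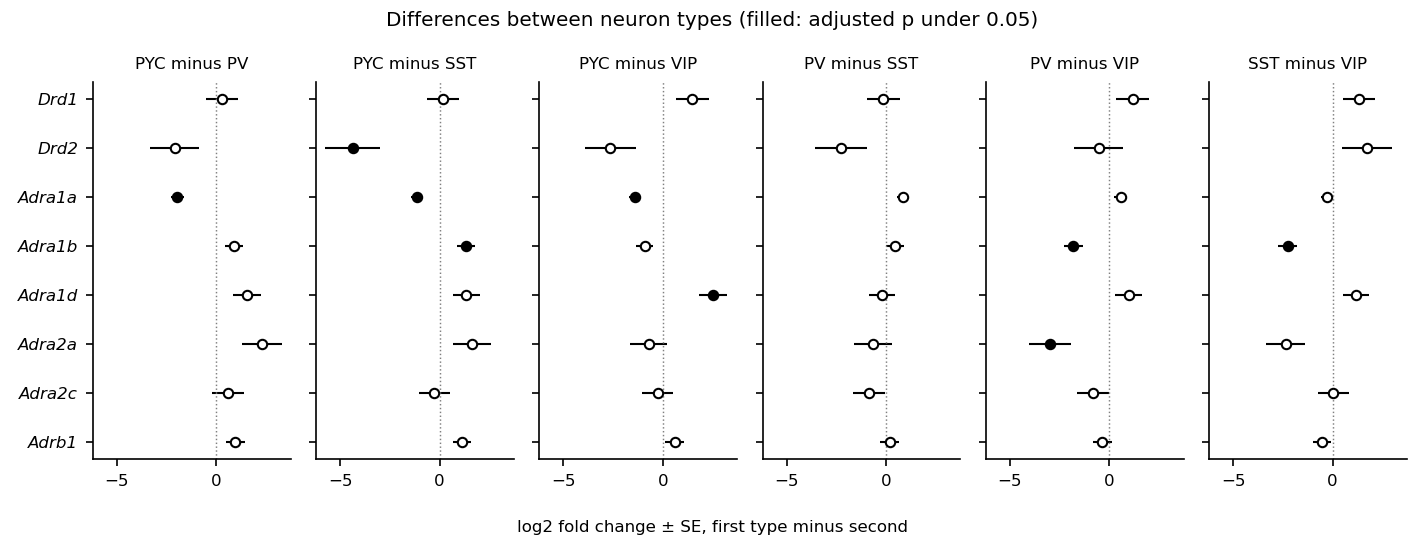
Log2 fold change ± SE (horizontal axis) of the 8 tested receptor genes for the 6 pairs of neuron types, the first type minus the second, with filled points where the adjusted p was under 0.05 and open points elsewhere. Of the 9 filled points, 6 belong to Adra1a and Adra1b, and Adra1a is lower in PYC than in PV, SST and VIP pools.

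The upstream sequence is shown for 2 of the genes called between types, chosen after their values were seen: Drd2, which had its highest mean in SST pools, and Adra1b, which had its lowest there. The RefSeq table for GRCm38.p6 held a window for 7 of the 9 genes, with none for Adra1a and Adra1d. The 250 bases before the annotated start are printed 5′ to 3′ on the gene's strand, and capitals mark the GC box GGGCGG or its reverse complement. The Drd2 window is chr9:49340153-49340402 on the plus strand and the Adra1b window is chr11:43901238-43901487 on the minus strand, the one of 2 annotated starts of Adra1b that lies farther upstream.
Drd2: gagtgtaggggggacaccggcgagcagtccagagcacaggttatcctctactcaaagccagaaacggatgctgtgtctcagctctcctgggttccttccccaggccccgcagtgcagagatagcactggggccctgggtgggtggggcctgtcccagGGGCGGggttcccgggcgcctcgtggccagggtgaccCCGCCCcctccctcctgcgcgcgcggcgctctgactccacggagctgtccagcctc
Adra1b: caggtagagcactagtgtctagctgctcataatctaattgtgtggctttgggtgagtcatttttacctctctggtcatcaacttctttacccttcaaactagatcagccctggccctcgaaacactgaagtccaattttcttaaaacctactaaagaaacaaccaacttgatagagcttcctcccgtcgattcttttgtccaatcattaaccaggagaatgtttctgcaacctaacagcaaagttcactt
The Drd2 window was 68.8% G and C with 15 CpG dinucleotides and 2 GC boxes, while the Adra1b window was 41.6% G and C with 3 CpG dinucleotides and no GC box. The second annotated start of Adra1b (chr11:43836490-43836739, minus strand, not printed) had 72.8% G and C, 22 CpG dinucleotides and 1 GC box. Over the 32851 windows of the table the median was 52.4% G and C and 6 CpG dinucleotides, and 32.7% held a GC box on either strand. Neither window held the cyclic AMP response element TGACGTCA (1.55% of windows), its shorter form TGACG (17.8%), the TATA motif TATAAA (12.4%) or the E box CACGTG (6.02%). TGACG lies within TGACGTCA, so those matches overlap. A match or its absence describes only these letters.

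Drd1, the D1 receptor gene (chromosome 13, 54051183 to 54055705, GRCm38, minus strand), was found in every type, in 20 of 21 PYC, 16 of 20 PV, 16 of 21 SST and 10 of 21 VIP libraries. In PYC libraries it ran from 0 over a median of 5.32 to 30.3 CPM in young mice and from 1.76 over 15.0 to 69.3 CPM in old mice. In VIP libraries the young values ran from 0 over 0.535 to 10.98 CPM and the old values from 0 over 0 to 36.3 CPM. Most VIP libraries thus had little or no Drd1, but their upper values overlapped those of every other type. The order of means was PYC, SST, PV and VIP, and edgeR gave an adjusted p of 0.541 for a difference between types. PYC and VIP pools differed by a log2 fold change of 1.48 ± 0.82 (SE), adjusted p = 0.318 in edgeR and 0.0192 in limma-voom, so this difference was called by 1 of the 2 tools. In SST pools young libraries ran from 0 over 11.3 to 60.9 CPM and old libraries from 0 over 5.29 to 21.7 CPM.

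Drd2, the D2 receptor gene (chromosome 9, 49340627 to 49408177, plus strand), had counts in 16 of 21 SST libraries but in 3 of 21 PYC, 6 of 20 PV and 7 of 21 VIP libraries. In SST libraries it ran from 0 over a median of 4.22 to 19.97 CPM in young mice and from 0 over 2.70 to 25.4 CPM in old mice. In PYC libraries 8 of 9 young and 10 of 12 old values were 0, and the highest was 5.46 CPM. The SST group means, 6.76 ± 7.95 CPM (SD, n = 9) in young and 5.90 ± 7.80 CPM (SD, n = 12) in old mice, had SDs larger than the means, and single SST libraries ranged from 0 to 497 counts. Drd2 differed between types with an adjusted p of 0.0423 in edgeR and 0.00395 in limma-voom, and was lower in PYC than in SST pools by a log2 fold change of -4.37 ± 1.39 (SE), adjusted p = 0.0243. SST against PV and VIP did not pass in edgeR, with adjusted p = 0.316 and 0.551, and limma-voom called SST over PV (PV minus SST -2.58, adjusted p = 0.0354). The call between types was lost with DESeq2 (adjusted p = 0.145) and without the 6 libraries low in mitochondrial counts (0.0994), which include the young SST library with 497 Drd2 counts. It was lost in young samples alone as well (adjusted p = 0.337, with PYC minus SST at -5.38 on the log2 scale and an adjusted p of 0.184), and in old samples alone Drd2 did not pass the filter on low counts. The call of SST over PYC was lost too without the 6 libraries low in mitochondrial counts (adjusted p = 0.0537), with a log2 fold change of -4.06.

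Because Drd2 is abundant in striatal projection neurons, markers of those cells were read in the same pools. Their sum was highest in SST libraries as well, at 46.7 to 205 CPM in young and 28.6 to 176 CPM in old mice, against 1.54 to 121 CPM in PYC libraries. Most of it was Rgs9, with a mean of 80.1 CPM in young and 72.5 CPM in old SST pools, while the more selective markers were near 0 there: Adora2a had counts in 2 of 9 young and 4 of 12 old SST libraries with at most 3.38 CPM, and Gpr6 in 1 of 9 and 1 of 12. The part of such cells in the Drd2 values was not tested. The 3 genes whose log2 CPM followed Drd2 most closely over the 83 libraries were Ror2 (r = 0.51), Chodl (r = 0.49) and Evi2a (r = 0.45). Chodl, a marker of a long-range projecting subset of SST cells, had counts in 6 of 9 young and 10 of 12 old SST libraries and in 1 library of each other group. These r values, and those for the genes below, are descriptions over libraries that share neuron type and depth. Choosing genes by r over 4 types favours those with the same order of type means. Th, which encodes tyrosine hydroxylase, the rate-limiting enzyme of dopamine synthesis, also had its highest mean in SST pools (7.44 ± 7.38 CPM, SD, n = 21) with counts in 15 of 21 libraries, and differed between types (edgeR adjusted p = 0.0123).

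Drd4, the D4 receptor gene (chromosome 7, 141292006 to 141296464, plus strand), had counts in 2 of 20 PV and 4 of 21 VIP libraries and in no PYC or SST library. Its highest value was 4.68 CPM in a young VIP library, and it was too low to be tested. A sum of 0 counts allows, at 3 counts over the group, up to 0.0207 CPM over the 21 PYC libraries and 0.0176 CPM over the 21 SST libraries. These limits cover counting error only.

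Adra1a, the alpha-1A receptor gene (chromosome 14, 66635251 to 66771168, plus strand), was lower in PYC pools than in all 3 interneuron types over both ages together. In young mice PYC libraries ran from 1.09 over a median of 7.31 to 32.7 CPM, and PV libraries from 52.0 over 82.7 to 110 CPM. Young SST libraries ran from 6.89 over 33.8 to 78.9 CPM and young VIP libraries from 36.2 over 62.2 to 127 CPM. In young mice the PYC values thus lay below every PV and every VIP value, and overlapped with the low end of the SST values. In old mice PYC libraries ran from 0.338 over 33.0 to 83.7 CPM, PV libraries from 41.9 over 88.1 to 131 CPM, SST libraries from 1.03 over 59.7 to 105 CPM and VIP libraries from 2.65 over 55.9 to 90.6 CPM, and all 4 types overlapped. PYC was lower than PV by a log2 fold change of -1.96 ± 0.32 (SE, edgeR adjusted p = 5.84e-07), lower than VIP by -1.39 ± 0.31 (adjusted p = 0.000791) and lower than SST by -1.12 ± 0.31 (adjusted p = 0.00816). The order of means was PV, VIP, SST and PYC, and among the interneurons the neighbours PV and VIP (adjusted p = 0.226) and VIP and SST (adjusted p = 0.784) did not pass. PV minus SST, the widest of these pairs, was 0.84 ± 0.31 (adjusted p = 0.0668 in edgeR), and limma-voom called it (0.0361). The difference between types was called with young samples alone (adjusted p = 0.000121) and not with old samples alone (0.175), where PYC minus PV was -1.22 on the log2 scale (adjusted p = 0.0509), PYC minus SST -0.62 (0.603) and PYC minus VIP -0.42 (0.857). In young samples alone these were -2.75 (adjusted p = 3.04e-05), -1.65 (0.0237) and -2.38 (0.000544), so all 3 pairs passed in young libraries alone and none in old ones. The difference between the ages, tested as the interaction of type and age, did not pass (adjusted p = 0.189 in edgeR). The genes closest to Adra1a over the libraries were Slc38a1, a glutamine transporter gene (r = 0.57), Dner (r = 0.54) and Vegfa (r = 0.53), all 3 with their highest mean in PV pools.

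Adra1b, the alpha-1B receptor gene (chromosome 11, 43774606 to 43901210, minus strand), was high in VIP pools. Its VIP values ran from 23.5 over a median of 69.3 to 104 CPM in young and from 13.7 over 35.5 to 56.7 CPM in old mice. PV libraries ran from 6.32 over 16.6 to 24.3 CPM in young and from 0 over 11.2 to 36.2 CPM in old mice. SST libraries ran from 0 over 1.43 to 47.0 CPM in young and from 0 over 7.16 to 26.6 CPM in old mice. In young mice 8 of 9 VIP values thus lay above every PV and SST value, and in old mice the 3 types overlapped. PYC libraries were between, from 6.31 over 23.5 to 49.1 CPM in young and from 6.02 over 22.1 to 46.2 CPM in old mice. Adra1b was higher in VIP than in SST pools, with a log2 fold change of SST minus VIP of -2.25 ± 0.47 (SE, edgeR adjusted p = 0.000462). It was higher in VIP than in PV pools, with a log2 fold change of PV minus VIP of -1.81 ± 0.48 (adjusted p = 0.00311), and higher in PYC than in SST pools by 1.34 ± 0.46 (adjusted p = 0.0412). VIP against its neighbour PYC did not pass (PYC minus VIP -0.92 ± 0.45, adjusted p = 0.234). The difference between types was called in young samples alone (adjusted p = 0.0152) and missed the threshold in old samples alone (0.0563). Of its 3 called pairs, SST minus VIP was called in young samples alone (-2.53, adjusted p = 0.0402), while PV minus VIP (-2.09, 0.0592) and PYC minus SST (1.13, 0.631) were not. In old samples alone none was called, at -1.97 (adjusted p = 0.103), -1.51 (0.146) and 1.52 (0.182) in that order. Fstl4 (r = 0.59), Ptprd, a receptor tyrosine phosphatase gene (r = 0.58), and Cbln2, a synaptic organiser gene (r = 0.53), followed Adra1b most closely over the libraries. Each of them, like Adra1b, had its lowest mean in SST pools and its highest in VIP pools, which the choice by r favours.

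Adra1d, the alpha-1D receptor gene (chromosome 2, 131545850 to 131562283, minus strand), was highest in PYC pools. It ran from 5.76 over a median of 39.1 to 56.1 CPM in young PYC libraries and from 0 over 19.4 to 49.6 CPM in old ones. In VIP libraries it ran from 0 over 3.94 to 11.2 CPM in young and from 0 over 4.81 to 14.1 CPM in old mice. In young mice 8 of 9 PYC values were above every VIP value, and in old mice the types overlapped. PV and SST were between, with group means of 7.67 to 11.7 CPM. Adra1d was higher in PYC than in VIP pools by a log2 fold change of 2.52 ± 0.70 (SE, edgeR adjusted p = 0.0087). PYC against PV (1.55 ± 0.69, adjusted p = 0.117) and against SST (1.35 ± 0.67, adjusted p = 0.231) did not pass in edgeR and passed in limma-voom, with adjusted p = 0.0253 and 0.0104. Neither age alone gave a call between types (adjusted p = 0.0732 in young and 0.617 in old samples), and PYC minus VIP was 3.15 (0.0635) in young and 1.87 (0.403) in old samples. The antisense gene Gm14285 overlaps Adra1d on the opposite strand, and since the sources used here do not give the strand setting of the counting, reads of the 2 genes cannot be told apart. Hpca (r = 0.52), Homer1, a postsynaptic scaffold gene (r = 0.51), and Scube1 (r = 0.50) were closest to it over the libraries, and all 3 had their highest mean in PYC pools.

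Adra2a, the alpha-2A receptor gene (chromosome 19, 54044151 to 54048982, plus strand), had counts in 18 of 21 VIP and 17 of 21 PYC libraries, in 13 of 21 SST and in 7 of 20 PV libraries. It ran from 0.495 over a median of 16.5 to 64.3 CPM in young VIP libraries and from 0 over 6.45 to 17.2 CPM in old VIP libraries. In PV libraries it ran from 0 over 0 to 3.71 CPM in young and from 0 over 0 to 15.1 CPM in old mice. In young mice 8 of 9 VIP values were above every PV value. PV was lower than VIP by a log2 fold change of -2.99 ± 1.04 (SE, edgeR adjusted p = 0.0331), and the difference between types had an adjusted p of 0.0397. The latter missed the threshold without the 6 libraries low in mitochondrial counts (0.0657), with the library total as a covariate (0.0513), in young samples alone (0.0866) and in old samples alone (0.861). PV minus VIP was -5.04 (adjusted p = 0.0416) in young samples alone and -0.91 (0.854) in old samples alone. Sez6 (r = 0.55), Rgs12, a regulator of G protein signalling (r = 0.50), and Cpne7 (r = 0.47) were closest to Adra2a over the libraries. All 3 had their highest mean in VIP and their lowest in PV pools.

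Adra2c, the alpha-2C receptor gene (chromosome 5, 35278319 to 35281763, plus strand), had counts in 20 of 21 VIP, 19 of 21 PYC, 19 of 21 SST and 14 of 20 PV libraries. Group medians lay between 1.42 CPM in young PV and 12.4 CPM in old VIP pools, and the highest single value was 58.7 CPM in an old VIP library. No pair of types was called, with log2 fold changes from -0.86 ± 0.81 (PV minus SST) to 0.59 ± 0.80 (PYC minus PV), and the adjusted p between types was 0.867 in edgeR and 0.392 in limma-voom. The SEs of about 0.8 leave differences of a few fold undetectable at this spread.

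Adrb1, the beta-1 receptor gene (chromosome 19, 56722199 to 56733113, plus strand), was found in every PYC and PV library and in 20 of 21 SST and 20 of 21 VIP libraries. PYC libraries ran from 12.2 over a median of 30.4 to 79.9 CPM in young and from 8.84 over 25.7 to 43.4 CPM in old mice. SST libraries ran from 0 over 8.41 to 39.5 CPM in young and from 0.109 over 11.7 to 65.2 CPM in old mice. All types overlapped at both ages. PYC minus SST was 1.13 ± 0.47 on the log2 scale (SE), adjusted p = 0.123 in edgeR and 0.001 in limma-voom. The difference between types had an adjusted p of 0.196 in edgeR, 0.119 in DESeq2 and 0.0045 in limma-voom. Bhlhe40, a transcription factor gene (r = 0.51), Tom1l1 (r = 0.45) and Chsy3 (r = 0.45) were closest to Adrb1 over the libraries, and all 3 had their highest mean in PYC pools.

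No receptor gene passed the test for an age difference in any of the 4 types. By edgeR 0 of 7 tested genes were called in PYC, 0 of 6 in PV, 0 of 8 in SST and 0 of 6 in VIP pools, all with an adjusted p of 1. Among all genes the called share was 0% in each type, of 12508 genes in PYC, 12564 in PV, 12805 in SST and 12337 in VIP pools. DESeq2 and limma-voom also called 0 receptor genes in each type, where DESeq2 called 0%, 0.0159%, 0.00781% and 0% and limma-voom 0.016%, 0.0159%, 0.00781% and 0% of all genes in PYC, PV, SST and VIP pools. At an unadjusted p under 0.05, edgeR had 1 receptor gene in PYC and 1 in VIP pools and none in PV and SST, where 2.89%, 2.98%, 2.29% and 2.87% of all genes passed in PYC, VIP, PV and SST. The median log2 fold change of the tested receptor genes was -0.02 in PYC, -0.05 in PV, -0.23 in SST and -0.65 in VIP pools, and over all tested genes it was 0.00, 0.02, -0.01 and 0.02.

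**Figure D4:**
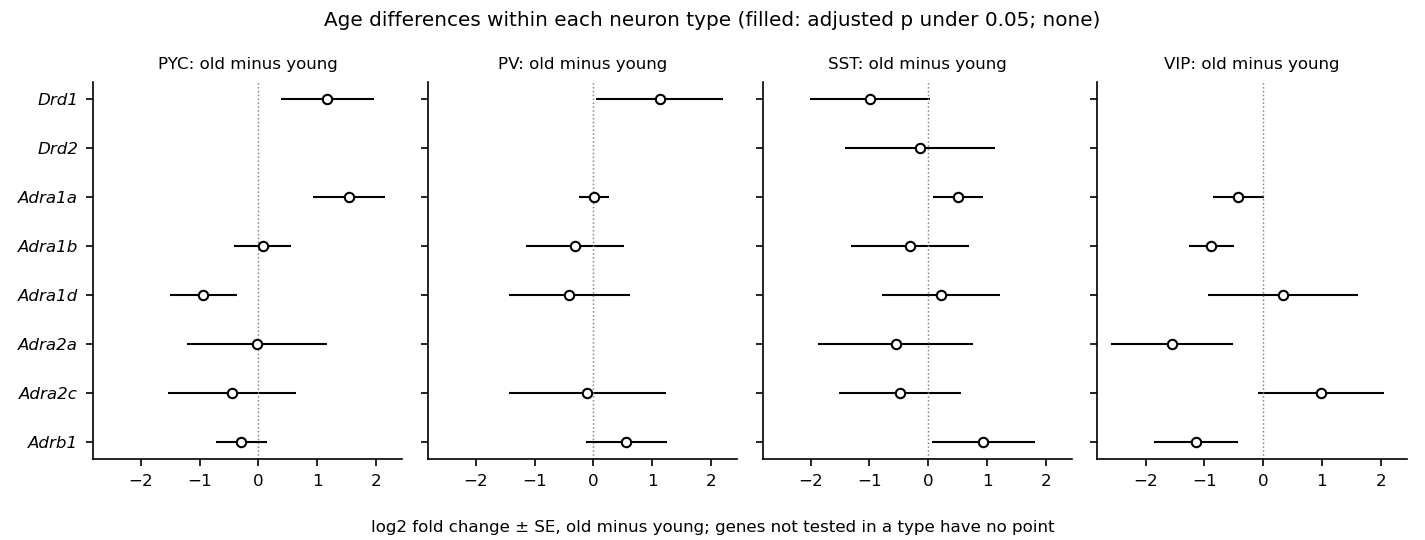
Log2 fold change ± SE of old minus young (horizontal axis) for the receptor genes tested in each neuron type, with no point where a gene was too low to be tested. No point reached an adjusted p under 0.05, and the points farthest from 0 are Adra2a in VIP (-1.55) and Adra1a in PYC pools (1.54).

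The gene with the smallest unadjusted p in PYC pools was Adra1a, which averaged 12.4 ± 11.6 CPM (SD, n = 9) at 2 months and 36.1 ± 20.8 CPM (SD, n = 12) at 22 months. The log2 fold change was 1.54 ± 0.61 (SE), unadjusted p = 0.015 and adjusted p = 1 by edgeR. Of the 12 old libraries, 11 were above the young median and 1 was below every young value, and the groups overlapped. Without any filter on low counts its adjusted p was 0.0446, under a setting that called 20.4% of all genes. Upper layer pyramidal markers (4 of 4 detected) summed to 80.7 to 454 CPM in young and 78.6 to 365 CPM in old PYC libraries, deep layer markers (6 of 6) to 56.9 to 390.1 and 83.1 to 526.2 CPM. The upper layer list is not particular to pyramidal cells in these pools. Its group means were 385 to 647 CPM in interneuron pools, against 249 CPM in young and 172 CPM in old PYC pools. The part of cortical layer in the Adra1a values was not tested. Adra1a in the interneurons gave log2 fold changes of 0.01 ± 0.25 in PV, 0.51 ± 0.42 in SST and -0.42 ± 0.43 in VIP pools. Whether the age difference of a gene differed between types was tested directly, and 0 of 8 receptor genes passed in edgeR, against 3.12% of all genes. Adra1a had the smallest p there (unadjusted 0.0161, adjusted 0.189), the single receptor gene with an unadjusted p under 0.05, where 13.5% of all genes were. Limma-voom and DESeq2 called no receptor gene there, beside 0.115% and 0.00521% of all genes.

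In VIP pools, the values of Adra1b, Adra2a and Adrb1 were lower in old than in young mice by amounts that did not pass the adjusted test. Adra1b averaged 68.8 ± 23.9 CPM (SD, n = 9) in VIP pools of young and 35.6 ± 12.9 CPM (SD, n = 12) in those of old mice, a log2 fold change of -0.88 ± 0.38 (SE) with unadjusted p = 0.0239. Adra2a averaged 20.3 ± 21.1 CPM in young and 6.997 ± 6.39 CPM in old VIP pools (-1.55 ± 1.03 on the log2 scale, unadjusted p = 0.139). Adrb1 averaged 30.8 ± 18.0 CPM in young and 13.4 ± 8.32 CPM in old VIP pools (-1.14 ± 0.71, unadjusted p = 0.114). For all 3 genes the young and old values overlapped. The VIP marker list (7 of 7 detected) summed to 1753 to 4202 CPM in young and 1257 to 2939 CPM in old VIP libraries, and the SST marker list (5 of 5) to 182 to 448 and 297 to 1023 CPM. Without 2 old VIP libraries in which Sst was above 300 CPM, the log2 fold change of Adra1b was -0.77, again with an adjusted p of 1, and the part of cell composition was not tested further. Adra2c averaged 7.29 ± 6.63 CPM in young and 13.6 ± 16.2 CPM in old VIP pools, with a log2 fold change of 0.99 ± 1.07.

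Among the other age values, Adra1d averaged 37.1 ± 15.6 CPM (SD, n = 9) in PYC pools of young and 19.4 ± 14.7 CPM (SD, n = 12) in those of old mice, a log2 fold change of -0.94 ± 0.57 (SE, unadjusted p = 0.11 in edgeR). Drd1 averaged 8.78 ± 9.19 CPM in young and 19.6 ± 19.6 CPM in old PYC pools (1.17 ± 0.79, unadjusted p = 0.144). Its difference was 1.13 ± 1.08 in PV and -0.99 ± 1.02 in SST pools. None of these differences passed the test. Drd2, tested for age in SST pools alone, gave -0.14 ± 1.27. The SEs of the age differences ran from 0.25 for Adra1a in PV to 1.34 for Adra2c in PV pools, so that for the sparse genes a change of several fold would not have been detectable.

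Other receptors of both families were sparse. Drd5, the other Gs-coupled dopamine receptor gene, had counts in 10 of 21 PYC, 3 of 20 PV, 2 of 21 SST and 1 of 21 VIP libraries, averaged 2.97 ± 4.47 CPM (SD, n = 21) in PYC pools and differed between types (edgeR adjusted p = 8.92e-05, limma-voom 0.00187). It was higher in PYC than in SST pools by a log2 fold change of 4.02 ± 1.29 (SE, adjusted p = 0.026). The antisense gene Gm26560 overlaps it on the opposite strand, and their reads cannot be told apart. Adrb3 had counts in 32 libraries and did not pass between types (adjusted p = 0.912), and it too has an antisense gene, Gm45470, on the opposite strand. Drd3 (2 libraries) and Adra2b (4) were too low to be tested.

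The genes that make catecholamines or act downstream of their receptors were read from lists of known pathway genes. The lists held 63 symbols, including the 5 other receptors of both families, with Drd5 among the calls. Of these symbols, 61 matched the count table, 55 were tested and 29 were called between types by edgeR, beside 26.6% of all genes. None was called for age in any type. Among G protein alpha subunit genes 7 of 10 were called, led by Gnal, which encodes the Golf protein that couples D1 receptors to adenylyl cyclase in the striatum, with 262 ± 70.3 CPM (SD, n = 20) in PV against 99.0 ± 45.9 CPM (SD, n = 21) in PYC pools. Gnai2 and Gnas had their highest means in VIP pools, at 123 ± 45.7 and 84.7 ± 76.8 CPM, and Gna14 in SST pools at 4.64 ± 11.3 CPM, though Gna14 was not called by limma-voom (adjusted p = 0.107). Of the adenylyl cyclases, which make cyclic AMP, 6 of 9 were called. Adcy2 averaged 301 ± 75.2 CPM in SST and 58.9 ± 25.9 CPM in PV pools, Adcy9 was highest in PYC pools (208 ± 51.3 CPM) and Adcy7 in SST pools (33.3 ± 19.5 CPM). Adcy1 averaged 1080.0 ± 262 CPM in PYC and 781 ± 219 CPM in VIP pools and was not called by limma-voom (adjusted p = 0.144).

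Of the protein kinase A genes and their targets, 7 of 11 were called. Arpp21, a cyclic AMP-regulated phosphoprotein, averaged 698 ± 192 CPM (SD, n = 21) in PYC and 136 ± 54.1 CPM (SD, n = 20) in PV pools, and Arpp19 was highest in PYC pools as well (171 ± 61.2 CPM). The catalytic subunit genes Prkacb and Prkaca were highest in PV pools, at 403 ± 113 and 192 ± 53.8 CPM. Of the phospholipase C and protein kinase C list, which lies downstream of alpha-1 receptors, 4 of 8 were called. The IP3 receptor gene Itpr1 (1365 ± 226 CPM) and Prkcb (751 ± 108 CPM) were highest in PYC pools, and Prkca was highest in VIP (266 ± 70.0 CPM) and lowest in SST pools (128 ± 36.4 CPM). Of the kinases and arrestins that switch receptors off, 2 of 6 were called: Grk3 was highest in PV pools (235 ± 63.1 CPM) and Arrb1 in SST pools (390.0 ± 76.8 CPM). Both synthesis genes tested, Th and Ddc, were called by edgeR, Ddc with an adjusted p of 0.0103 against 0.0611 in limma-voom. None of 7 tested transport and breakdown genes passed in edgeR, including Maoa at 10.5 to 20.3 CPM across the type means. The transporter gene Slc29a4 was called by limma-voom (adjusted p = 3.76e-05) and not by edgeR (0.109). It averaged 1.68 ± 3.96 CPM in PYC pools, with counts in 7 of 21 libraries. In VIP pools it averaged 9.75 ± 9.37 CPM, with counts in 19 of 21.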

How the data were processed

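Counts per Ensembl gene were used as deposited by the authors, 1 column per library with no normalization. Reads had been aligned to GRCm38 by HISAT2, per the submitters' processing notes. The sources used here do not say how reads were counted (tool, annotation, strand). Symbols matched 48349 of 48795 genes, and coordinates and exon lengths are from GENCODE M21. Tests used edgeR 4.0.16 in R 4.3.3 (glmQLFit with legacy=TRUE, robust; TMM; filterByExpr, minimum count 10; 2-sided; Benjamini-Hochberg over all genes; threshold 0.05), with 1 fit of all 8 groups for types and the interaction, and 1 fit of old against young within each type. CPM uses the library total. SEs come from the F statistic. Likeness is Pearson's r of log2 CPM (prior count 2) over 83 libraries, naming the 3 closest genes. Of each pathway list, up to 4 genes with the smallest p among those called between types were named, the rest counted; some listed genes are not reported here. The fits were tested on simulated data. Alternatives were RLE factors, no filter, a CPM filter (at least 1 in 6 libraries, mean 2), limma-voom with quality weights (limma 3.58.1), DESeq2 1.42.0, the library total or F number of the title as covariates, the newer quasi-likelihood method, and leaving out libraries. The members and lists were chosen with earlier results of these data known. Replicates are separate libraries, and nothing ties one to a mouse, so p-values measure the spread between libraries. No molecular identifiers are given, so limits from counts cover counting error only.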

Additional observations from a re-analysis of the deposited data

Results flagged for a closer look

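In groups of 8 or 9 young libraries, 1 value stood apart from the rest by Dixon's test in 9 of 34 group and gene combinations, where chance gives about 1 in 20 if values are normally spread. These sparse CPM values are not, and with all but 1 library at 0 the value must stand apart (Drd2 in young PYC, Drd4 in young PV), so the 9 are not read as an excess. Groups of 12 old libraries were not tested. For Adrb1, a young PYC library had 79.9 CPM, with the next at 37.0 CPM; it is 1 of the 6 libraries low in mitochondrial counts. A young SST library had 39.5 CPM of Adrb1, with a group median of 8.41 CPM. For Drd1, replicate 8 of young PYC had 30.3 CPM and replicate 8 of young PV had 35.2 CPM, with medians of 5.32 and 2.28 CPM. Drd2 was at 1.28 CPM in 1 young PYC library and at 0 in the other 8. Drd4 had 1.86 CPM in 1 of 8 young PV libraries, with 0 in the rest, and 4.68 CPM in 1 young VIP library, with the next at 1.497 CPM. Adra2a had 3.71 CPM in 1 young PV library, with the next at 0.795 CPM. Adra2c had 51.6 CPM in 1 young SST library, with the next at 22.3 CPM. The cause was not tested for any of them.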

How the results depend on the processing

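The count of 5 receptor genes that differed between types was 3 without the 6 libraries low in mitochondrial counts, 2 in young samples alone and 0 in old samples alone. The count of 9 called gene and pair tests was 19 with limma-voom, 21 with the newer quasi-likelihood method, 5 in young samples alone and 0 in old samples alone. The share of all genes called in a pair moved as well. Over the pairs it was 7.8% to 18.8% with the newer method. It was 1.36% to 7.59% in young samples alone and 1.86% to 9.67% in old samples alone. The tests of 1 age alone have fewer samples and, in old samples, tested 7 genes. Without the 6 libraries low in mitochondrial counts 9 pair tests were called too, where 6.47% to 16.7% of all genes were called. They were not the same 9, since the Drd2 call of SST over PYC was lost. For age in PYC the count went from 0 to 1 with no filter on low counts; the cause was not tested. The log2 age difference of Drd1 in SST pools, -0.99, was 0.05 with limma-voom, where it was not called either. All other counts were within 1.5 times of those reported. Of 385 other values under alternatives, 356 kept their side of the threshold, and their direction where the value was a fold change. Of the rest, 24 lost the threshold, 4 gained it and 1 reversed. The 385 include tests not called in the reported fit, so this total does not measure the stability of the called results alone. Leaving out the 2 old VIP libraries high in Sst, and the newer quasi-likelihood method for age, were chosen after seeing the data. In the installed edgeR, the listed legacy=TRUE alternative for age is the reported fit. No paired analysis was possible because the replicate numbers follow sample order and no library is tied to a mouse. Sparse counts limit Drd2, Drd4 and Adra2a most.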
